A study of Mus musculus with 12 samples.

Results

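The enzymes that oxidise, reduce, hydrolyse and conjugate foreign compounds and retinoids were followed in the small intestine of fed and fasted mice. Members were all non-control probes whose gene name, as the 12 h files give it, is that of a cytochrome P450 (Cyp, without Cyp51), P450 reductase (Por), alcohol, aldehyde or retinol dehydrogenase (Adh, Aldh, Rdh), aldo-keto reductase (Akr), quinone reductase (Nqo), carboxylesterase (Ces), epoxide hydrolase (Ephx), flavin monooxygenase (Fmo), glutathione transferase (Gst, Mgst), glucuronosyltransferase (Ugt) or sulfotransferase (Sult). The rule found 45 probes of 40 genes among the 20280 probes of the array, and no Fmo, Sult, Cyp26 or Adh4 probe. Intestines came from male FVB mice aged 6 weeks, either fed chow freely or deprived of it for 12, 24 or 72 h; fasted animals lived in metabolic cages and were warmed by an infrared lamp from 24 h on. Each time point had 3 arrays, and on each array Cy3 carried RNA pooled from 2 full-thickness intestines, so that epithelium, muscle and immune cells were measured together. Cy5 carried a common reference from 6 fed mice, which the source label of fed replicate 3 names as its own pair of mice and its labelling protocol as the pool of 6. Values are log2(Cy3/Cy5) after background correction and quantile normalization, so that 0 is the level of the fed reference. Since each pool held different mice, the p-values measure the spread between pools.

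The intestinal epithelium meets drugs, dietary toxins and vitamin A before the liver does. Phase I enzymes add or unmask a reactive group: the P450s, fed with electrons by Por, hydroxylate, and esterases and epoxide hydrolases split esters and epoxides. Phase II enzymes attach glutathione, glucuronic acid or sulfate, and export pumps then remove the product. Dietary retinol is oxidised to retinal by alcohol and retinol dehydrogenases, and retinal to retinoic acid by the Aldh1a enzymes.

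Arrays of fed and 72 h pools share a file format and a median Cy5 signal of 124 to 142. Those of 12 h and 24 h pools share another format, at 393 to 627. Hence 72 h against fed and 24 h against 12 h lie within a format, whereas for 12 h or 24 h against fed the format and the time of fasting cannot be told apart. Fed replicate 3 and 12 h replicate 3 stood apart for the enzymes. On fed replicate 3 the Cy3 signal of 10 of the 45 probes, and of 4.57% of all probes, lay over 1 log2 unit from the other fed pools. On 12 h replicate 3 the Cy5 signal of 9 enzyme probes, and of 11.7% of all probes, lay over 1 log2 unit from the median of the arrays. Across all probes 12 h replicate 1 was also unlike its group, with a mean correlation of 0.358 with the other 12 h arrays (0.364 for 12 h replicate 3), 4.23% of probes off in Cy3 and an array weight of 0.364 (0.348 for fed replicate 3), but only 1 of the 45 enzyme probes was off in its Cy3. Results that rest on the first 2 arrays are given with and without them. Of 15 listed enterocyte symbols, 5 were on the array (Anpep, Apoa1, Apoa4, Mttp and Vil). All 5 were well above background on every fed array. Anpep, a brush-border peptidase, was called 10.8-fold higher at 12 h (adjusted p = 0.0162), no other was called against fed, and Vil, the microvillus protein villin, was lower at 72 h than at 24 h (-0.73, adjusted p = 0.00783). Their summed Cy3 signal was 87900 to 138000 in fed pools and 109000 to 114000 at 72 h. Markers of other cell types were called as well. The 3 B and plasma cell genes summed to 2620 to 3950 in fed and 555 to 688 in 72 h pools, and 2 of the 3 were called lower at 72 h. Of the 6 smooth muscle genes 4, 2 and 2 were called higher at 12, 24 and 72 h, with sums of 4570 to 6200 in fed and 6520 to 7430 in 72 h pools. The 4 crypt proliferation genes summed to 2010 to 2970 in fed and 1520 to 1730 in 72 h pools. Pcna was called lower at 12 and 72 h and Cdc2a at 24 and 72 h, whereas 1 Top2a probe was called higher at 24 h. The 2 goblet cell genes summed to 2210 to 2950 and 996 to 1350, but differed in direction at 72 h. Agr2 was called 2.7-fold lower (adjusted p = 0.00186), and Clca1 was 1.32-fold higher, uncalled (adjusted p = 0.136). The 2 T cell genes summed to 383 to 399 in fed and 266 to 289 in 72 h pools, and the 3 liver genes to 562 to 686 and 891 to 1290. Of the liver genes 1 was called higher at 72 h, and neither T cell gene was called against fed. Single genes for macrophages, exocrine pancreas and fat were not called against fed. Of the 2 Paneth cell genes Mmp7 was called 4.06-fold higher at 12 h (adjusted p = 0.0399), with pools that overlapped the fed ones. Neither Paneth gene was called at 24 or 72 h. The part of these cells in the enzyme changes was not tested.

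At 72 h, 13 of the 45 enzyme probes passed an adjusted p of 0.05 (limma, Benjamini-Hochberg over all probes, hereafter called), 10 lower and 3 higher than in fed intestine. The share was 28.9%, and 10.6% of all probes were called in that comparison, 5.8% lower and 4.8% higher. At 12 h, 7 were called (5 lower, 2 higher) and at 24 h 6 (5 lower, 1 higher), against 10.9% (6.02% lower, 4.9% higher) and 10.1% (6.26% lower, 3.79% higher) of all probes. The median change over the 45 probes was -0.17, -0.09 and -0.15 on the log2 scale at 12, 24 and 72 h, where that of all probes was -0.02, 0.02 and 0.01. In a moderated F-test over the 3 fasted times 16 enzymes passed, beside 24.9% of all probes, and 7 passed without 72 h replicate 1 (12.7%) and 8 without 72 h replicate 3 (15.7%). The comparisons share the fed pools. Without fed replicate 3 and 12 h replicate 3 the counts were 6, 11 and 15, beside 5.07%, 16.5% and 14.8% of all probes. Leaving out single arrays moved the calls of all probes too. At 72 h the enzyme count was 7 without fed replicate 3 (5.49% of all probes) or 72 h replicate 1 (4.2%). At 24 h it was 0 without 24 h replicate 1 (3.88%), 1 without fed replicate 1 (2.89%), and 2 without fed replicate 3 (4.8%) or 24 h replicate 3 (5.36%). At 12 h it was 4 without fed replicate 3 (3.14%) and 11 without 12 h replicate 1 (22.6%). In such whole-tissue RNA, fewer cells of a type and less RNA per cell cannot be told apart.

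**Figure D1:**
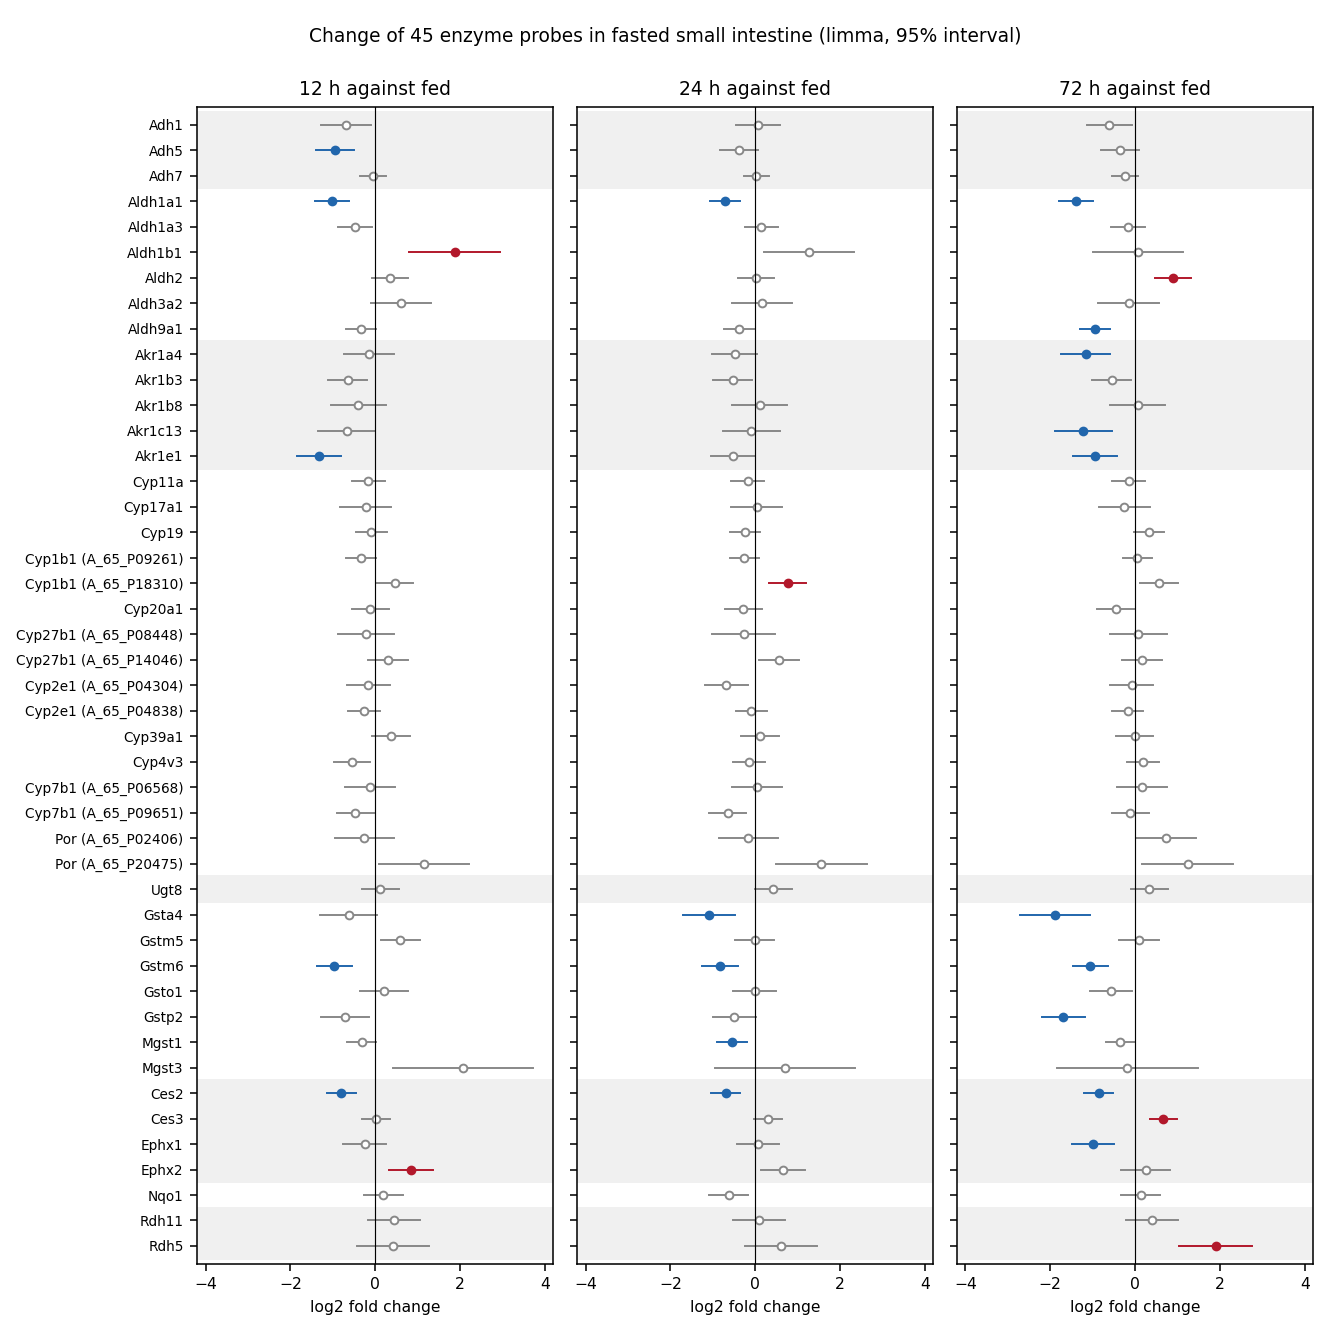
Log2 fold change of each of the 45 enzyme probes (rows, shaded by family) at 12, 24 and 72 h against fed, with 95% intervals. Filled blue points were called lower, filled red points called higher, and open grey points were not called. At 72 h 10 points are blue and 3 red, and 10.6% of all probes were called. None of the 14 P450 probes is among those points.

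The retinoid set held 7 genes, of which 2, 1 and 2 were called at 12, 24 and 72 h, beside 10.9%, 10.1% and 10.6% of all probes. Aldh1a1, which oxidises retinal to retinoic acid, was lower at each fasted time. Its log2 ratio was -0.15, -0.39 and 0.07 in the fed pools, -1.21 and -1.15 in the 12 h pools with a value, -0.99, -0.78 and -0.82 at 24 h, and -1.61 and -1.5 at 72 h, where 1 array gave no value. Every fasted pool lay below every fed pool. Aldh1a1 was 2.03-fold lower at 12 h (log2 -1.02, SE 0.18, adjusted p = 0.00801), 1.63-fold lower at 24 h (-0.70, SE 0.16, adjusted p = 0.021), then 2.63-fold lower at 72 h (-1.40, SE 0.18, adjusted p = 0.00083). The 72 h call held whichever fed or 72 h array was left out. Here and throughout, single arrays were left out only from the 2 times compared, except for the F-test. The 24 h call was lost without fed replicate 1 or 3 or 24 h replicate 1 or 3, at adjusted p-values of 0.0514 to 0.0812.

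Rdh5, a dehydrogenase of cis-retinols best known from the eye, rose. Its fed values were 0.54 and -0.50 on the 2 arrays that gave one. At 12 h the values were -0.31, 0.56 and 1.06 and at 24 h 0.57, 0.31 and 1.01, both overlapping the fed range. At 72 h they were 2.21, 1.37 and 2.18, all above it. Rdh5 was 3.73-fold higher at 72 h than in fed pools (log2 1.90, SE 0.40, adjusted p = 0.00842). Without fed replicate 3 a single fed value remained, and the change was 1.38 (SE 0.47, adjusted p = 0.123). The 300 bases around its start (250 before, 50 after; GRCm38.p6, chr10:128919248-128919547, minus strand, RefSeq) are shown because it rose most of the 45 at 72 h.
Rdh5: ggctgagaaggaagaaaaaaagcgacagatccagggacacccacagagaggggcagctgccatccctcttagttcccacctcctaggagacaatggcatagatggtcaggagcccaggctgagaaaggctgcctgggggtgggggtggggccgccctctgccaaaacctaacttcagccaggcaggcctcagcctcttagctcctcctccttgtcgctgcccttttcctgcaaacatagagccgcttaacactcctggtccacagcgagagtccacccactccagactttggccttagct
Neither strand holds TGACNNNGC, the core of the antioxidant response element, GCGTG, the core of the xenobiotic response element, or a DR1 element, the nuclear receptor direct repeat with 1 base between. They occur in 12.4%, 32.4% and 0.0396% of all promoter windows of this length.

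The other retinoid genes changed less. Adh5, a glutathione-dependent formaldehyde dehydrogenase, had values of -0.09, -0.17 and 0.39 in fed pools, and -0.58, -0.72 and -1.41 at 12 h. It was 1.93-fold lower at 12 h (log2 -0.95, SE 0.21, adjusted p = 0.0142). The call was lost without fed replicate 3 (-0.77, adjusted p = 0.063), and in the Cy3 channel alone the change was -0.17 (adjusted p = 0.598). At 24 and 72 h its pools lay within 0.05 log2 units of each other, between -0.35 and -0.30, and were not called (adjusted p = 0.245 and 0.305). Adh1, the classical retinol and ethanol dehydrogenase, was at -0.39, -0.41 and 0.65 in fed pools, -0.61 and -0.88 at 12 h, -0.05, 0.04 and 0.04 at 24 h, with -0.47, -0.67 and -0.83 at 72 h. Its 12 h and 72 h pools lay below all fed pools, but no comparison with fed was called (adjusted p = 0.112, 0.893 and 0.138). With each array centred on its median in place of quantile normalization, Adh1 was called lower at 12 h (-1.62, adjusted p = 0.00405) and 72 h (-1.28, adjusted p = 0.0057). The highest fed value came from fed replicate 3. Without both arrays that stood apart, Adh1 changed by -0.21, 0.41 and -0.26 at 12, 24 and 72 h and was not called. A single 12 h pool with a value remained in that run. Adh7, a retinol dehydrogenase of the stomach and upper gut, was not well above background on any fed array. Its changes were -0.05, 0.03 and -0.24. Aldh1a3, which also makes retinoic acid, changed by -0.48, 0.15 and -0.17 (adjusted p = 0.103, 0.643 and 0.63), and Rdh11, a retinal reductase, by 0.44, 0.09 and 0.41 (adjusted p = 0.328, 0.866 and 0.414).

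**Figure D2:**
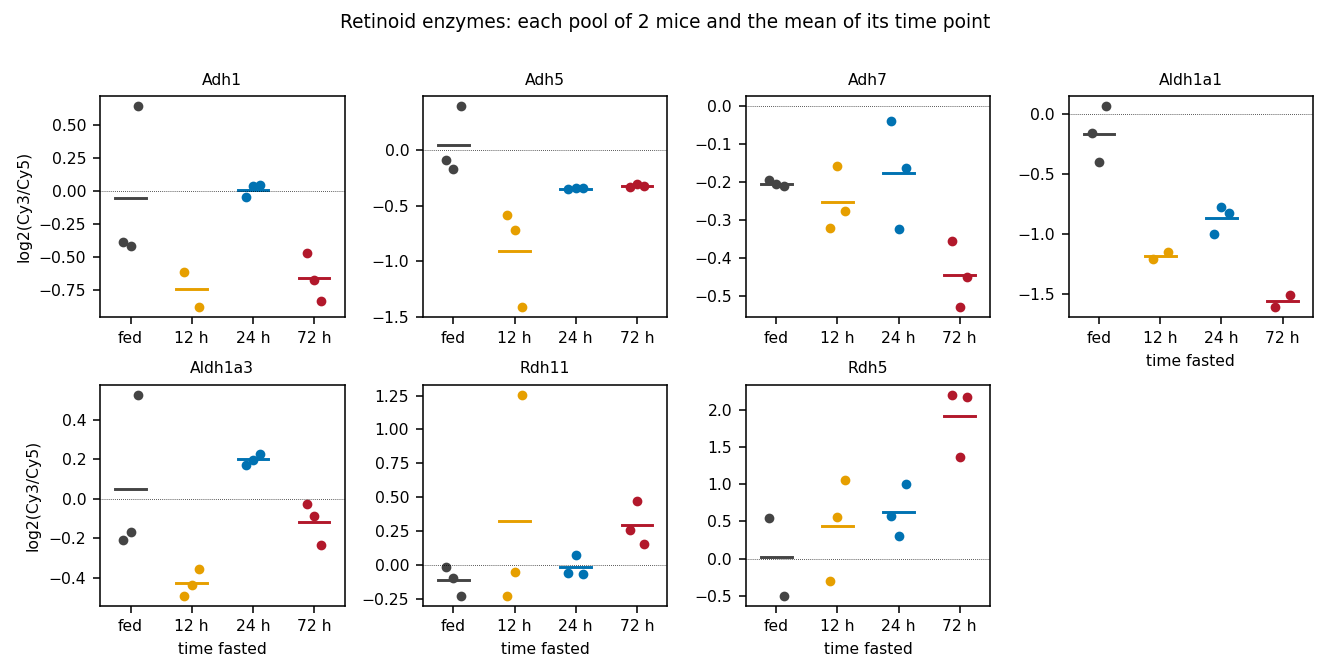
Log2(Cy3/Cy5) of the 7 retinoid genes in each pool of 2 mice (points) with the mean of each time point (bars), by time fasted. Aldh1a1 lies lower in all fasted pools, and Rdh5 lies above the fed pools at 72 h, from 1.37 to 2.21.

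Among the other aldehyde dehydrogenases, changes ran both ways. Aldh9a1, which handles aminoaldehydes on the way to carnitine, stood at -0.21, -0.39 and 0.09 in fed pools and at -1.12, -1.0 and -1.20 at 72 h. It was 1.92-fold lower at 72 h (log2 -0.94, SE 0.17, adjusted p = 0.00269), a call that held whichever array was left out. Its promoter window (GRCm38.p6, chr1:167349741-167350040, plus strand, RefSeq) is shown because it alone among the printed ones holds TGACNNNGC. Variants of that core were not searched. The match, in capitals as TGACTAGGC, begins 87 bases before the start. The other capitals are a pair of CACGC, which is GCGTG read on the opposite strand, starting 40 and 12 bases before it.
Aldh9a1: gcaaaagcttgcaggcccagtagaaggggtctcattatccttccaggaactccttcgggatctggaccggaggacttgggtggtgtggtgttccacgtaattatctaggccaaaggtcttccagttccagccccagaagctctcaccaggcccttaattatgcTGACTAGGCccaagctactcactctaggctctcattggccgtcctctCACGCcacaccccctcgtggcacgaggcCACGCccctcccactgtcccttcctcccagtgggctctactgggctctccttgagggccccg
Aldh2, the mitochondrial enzyme that clears acetaldehyde, went up. It stood at -0.05, 0.12 and -0.04 in fed pools, -0.09, 0.41 and 0.77 at 12 h, 0.00, 0.06 and 0.03 at 24 h, with 1.07, 0.65 and 1.02 at 72 h. The 72 h pools lay above all fed and 24 h pools, and 1 of the 12 h pools lay among them. Aldh2 was 1.87-fold higher at 72 h (log2 0.90, SE 0.20, adjusted p = 0.00974). Without 72 h replicate 1 the change was 0.82 (adjusted p = 0.0621), and in Cy3 alone 0.77 (adjusted p = 0.0984). Aldh1b1, a mitochondrial relative, was called higher at 12 h (3.65-fold, log2 1.87, SE 0.50, adjusted p = 0.0308). Its fed values were 0.04, 0.34 and -1.32 and its 12 h values 0.57, 1.09 and 3.00, so that the extreme value on each side came from an array that stood apart. Without both arrays Aldh1b1 changed by 0.64 at 12 h (adjusted p = 0.0961) and by 0.76 at 24 h (adjusted p = 0.0222, called). Aldh3a2, a fatty aldehyde dehydrogenase, was not called (0.60, 0.16 and -0.15). Without both arrays it was lower at 72 h (-0.54, adjusted p = 0.0188). The 12 h call of Aldh1b1 was also lost without fed replicate 1 (adjusted p = 0.0584), fed replicate 3 (1.37, adjusted p = 0.134) or 12 h replicate 3 (1.15, adjusted p = 0.0652).

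Of the 5 aldo-keto reductases, which reduce aldehydes and ketones with NADPH, 1, 0 and 3 were called at 12, 24 and 72 h, all lower. Across all probes 6.02%, 6.26% and 5.8% were called lower at those times. Akr1e1, a reductase of anhydrofructose, was at 0.12, -0.16 and 0.27 in fed pools, -0.73, -1.08 and -1.95 at 12 h, -0.55, -0.39 and -0.41 at 24 h, with -0.96, -0.72 and -0.93 at 72 h. All 9 fasted pools lay below the fed ones. Akr1e1 was 2.52-fold lower at 12 h (log2 -1.33, SE 0.24, adjusted p = 0.00665), a call that held whichever array was left out. It was 1.93-fold lower at 72 h (-0.95, SE 0.24, adjusted p = 0.0229). The 72 h call was lost without fed replicate 1 or 3 or 72 h replicate 1 or 3, at adjusted p-values of 0.0691 to 0.103. Akr1a4 (Akr1a1 today), the general aldehyde reductase, fell to -0.85 and -1.17 at 72 h from -0.14 and 0.45 in the fed pools with a value, 2.24-fold (adjusted p = 0.0167). It was lost without fed replicate 3 (-0.87, adjusted p = 0.13) or 72 h replicate 3 (-1.01, adjusted p = 0.099). Akr1c13, a reductase of steroids and xenobiotics, stood at 0.47, 0.21 and 0.16 in fed and -0.95, -1.02 and -0.84 in 72 h pools. It was 2.33-fold lower (log2 -1.22, SE 0.31, adjusted p = 0.0225). Its 12 h pools ran from -1.29 to 0.50 and widened the error, and leaving out any fed or 72 h array other than fed replicate 2 lost the call (adjusted p = 0.0538 to 0.0867). The other members, Akr1b3 and Akr1b8, were not called, Akr1b3 at -0.65, -0.53 and -0.55 (adjusted p = 0.068, 0.132 and 0.128). Without the arrays that stood apart, Akr1c13 was also called lower at 12 h (-1.19, adjusted p = 0.0206). Akr1b3 then changed by -0.37, -0.26 and -0.28, uncalled (adjusted p = 0.248, 0.312 and 0.305).

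Glutathione transferases attach glutathione to reactive compounds. Of their 7 probes 1, 3 and 3 were called at 12, 24 and 72 h, all lower, beside 6.02%, 6.26% and 5.8% of all probes. Gstp2, a pi-class enzyme whose gene number belongs to Gstp1 in RefSeq, stood at -0.15, -0.28 and 0.45 in fed pools, -0.48 and -0.96 at 12 h, -0.58, -0.53 and -0.36 at 24 h, with -1.78, -1.26 and -2.01 at 72 h. It was 3.23-fold lower at 72 h (log2 -1.69, SE 0.23, adjusted p = 0.000845), whichever array was left out, and was not called at 12 h (-0.72, adjusted p = 0.0888) or 24 h (-0.50, adjusted p = 0.192). Gstp1 and Gstp2 are near-identical neighbours, so this probe may read both. The window around the Gstp1 start (GRCm38.p6, chr19:4037863-4038162, minus strand, RefSeq) is shown for the largest fall measured on all fed and 72 h arrays. Its capitals mark GCGTG, which starts 13 bases before the start, and it holds no TGACNNNGC. Variants such as the tgagtcagc in this window were not searched.
Gstp1: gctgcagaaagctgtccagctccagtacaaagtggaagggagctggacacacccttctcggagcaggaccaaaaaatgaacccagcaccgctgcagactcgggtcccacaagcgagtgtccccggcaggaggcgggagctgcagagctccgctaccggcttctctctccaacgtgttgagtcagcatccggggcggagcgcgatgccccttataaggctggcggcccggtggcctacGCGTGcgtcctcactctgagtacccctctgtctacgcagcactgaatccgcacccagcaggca
Gsta4, which conjugates aldehydes of lipid peroxidation, stood at -0.18 and 0.69 in 2 fed pools, -1.08, -0.82 and -0.63 at 24 h, and -1.64 on the only 72 h array with a value. It was 2.14-fold lower at 24 h (adjusted p = 0.0351), then 3.70-fold lower at 72 h (log2 -1.89, SE 0.37, adjusted p = 0.00971). The 72 h value is of a lone pool, assumed to vary like the others. The 24 h call was lost without fed replicate 1 (where the fed array gave no value) or 3 or any 24 h array, at adjusted p-values of 0.0607 to 0.209. Gstm6, a mu-class enzyme, was lower at each fasted time. Its fed pools were at -0.24, -0.26 and 0.45, and its fasted pools between -1.12 and -0.70, with no overlap. The falls were 1.96-fold at 12 h (adjusted p = 0.0101), 1.78-fold at 24 h (adjusted p = 0.0186) and 2.08-fold at 72 h (adjusted p = 0.00364). The 24 h call was lost without fed replicate 3 (adjusted p = 0.0586) or 24 h replicate 1 (adjusted p = 0.0777).

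Membrane-bound Mgst1 was 1.47-fold lower at 24 h (log2 -0.55, SE 0.16, adjusted p = 0.0453), with values of -0.77, -0.52 and -0.57 against -0.03, -0.21 and 0.02 in fed pools. That call was lost when any of the 6 fed and 24 h arrays was left out (adjusted p = 0.0741 to 0.154). Mgst3, a microsomal transferase and peroxidase, shows what the arrays that stood apart did. Its fed values were 0.08, -0.04 and -3.13 and its 12 h values 0.07, 0.06 and 3.01. On fed replicate 3 its Cy3 signal was 8.55 on the log2 scale against 11.76 and 11.65 on the other fed arrays. On 12 h replicate 3 its Cy5 reference was 7.83 against 11.98 and 11.62 on the other 12 h arrays. At 72 h Mgst3 stood at -1.16, -1.11 and -1.35. With all arrays no comparison was called (-0.18 at 72 h, adjusted p = 0.913). Without both arrays Mgst3 was 2.34-fold lower at 72 h (-1.23, SE 0.16, adjusted p = 0.000518). Gstm5 and Gsto1 were not called at any fasted time, with changes from -0.57 to 0.59.

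**Figure D3:**
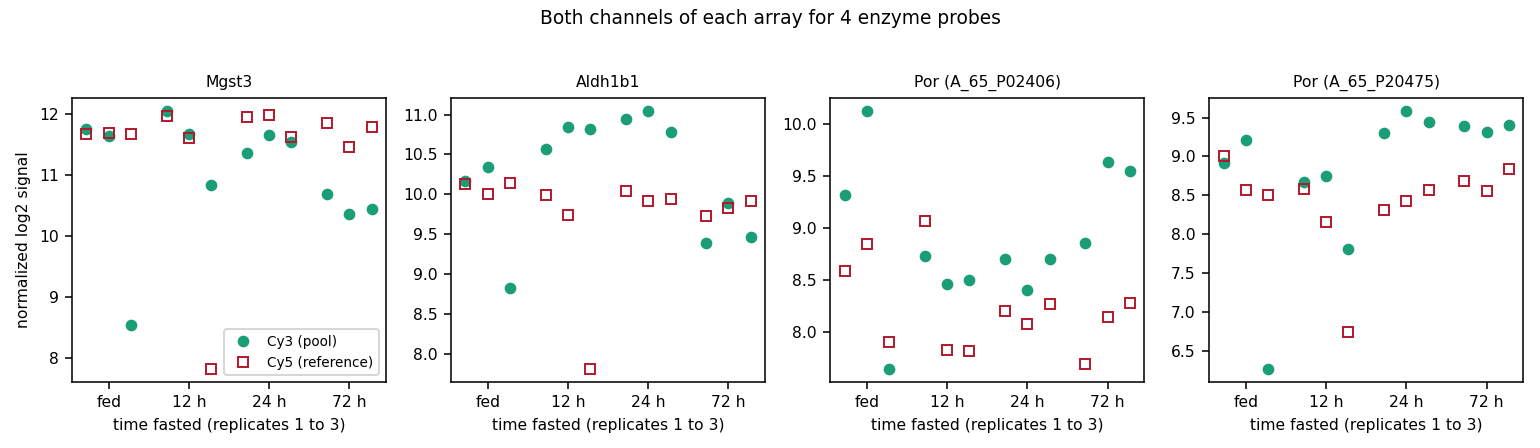
Normalized log2 signal of the Cy3 pool (filled circles) and the Cy5 reference (open squares) on each of the 12 arrays for Mgst3, Aldh1b1 and both Por probes, by time fasted and, within a time, by replicate. The low Cy3 signal of fed replicate 3 (8.55 for Mgst3) and the low Cy5 signal of 12 h replicate 3 (7.83 for Mgst3) stand out.

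Ester and epoxide hydrolases split in direction. Ces2 (Ces2c today), an intestinal carboxylesterase that hydrolyses drug esters, was lower at each fasted time. Its fed pools were at -0.30, -0.08 and -0.23 and its 9 fasted pools between -1.32 and -0.83. The falls were 1.74-fold at 12 h (log2 -0.80, SE 0.16, adjusted p = 0.00971), 1.62-fold at 24 h (-0.70, SE 0.16, adjusted p = 0.0169) and 1.81-fold at 72 h (-0.85, SE 0.16, adjusted p = 0.00389). The 72 h and 12 h calls held whichever array was left out. The 24 h call was lost without fed replicate 1 or 2 or 24 h replicate 1 (adjusted p = 0.0503 to 0.0661). In Cy3 alone the 12 h change was -0.21 (adjusted p = 0.352). Ces3 (Ces1d today), another carboxylesterase, stood at 0.37, 0.16 and 0.05 in fed and 0.90, 0.73 and 0.96 in 72 h pools, 1.59-fold higher (log2 0.67, SE 0.15, adjusted p = 0.0116). Its reference channel was not steady. Ces3 in Cy5 was lower by -1.40 and -1.48 log2 units at 12 and 24 h (adjusted p = 0.000559 and 0.000182) and differed by -0.51 at 72 h (adjusted p = 0.813), and in Cy3 alone the 72 h change was 0.16 (adjusted p = 0.632). The 72 h call was also lost without fed replicate 3 or 72 h replicate 1 (adjusted p = 0.05 and 0.059). Ephx1, the microsomal hydrolase of foreign epoxides, was at -0.39, -0.48 and 0.39 in fed and -1.28, -0.89 and -1.29 in 72 h pools. It was 1.99-fold lower at 72 h (log2 -0.99, SE 0.24, adjusted p = 0.0147), and the call was lost without fed replicate 3 (-0.72, adjusted p = 0.0695), 72 h replicate 1 (adjusted p = 0.0792) or 72 h replicate 3 (adjusted p = 0.0586). Ephx2, the soluble hydrolase of fatty acid epoxides, went the other way at 12 h. Its values were -0.20, -0.04 and -0.21 in fed pools, 0.20, 0.49 and 1.37 at 12 h and 0.38, 0.61 and 0.55 at 24 h. It was called at 12 h (1.79-fold higher, log2 0.84, SE 0.24, adjusted p = 0.0419) and not at 24 h (0.66, adjusted p = 0.0956). The 12 h call was lost without any single fed or 12 h array but 12 h replicate 1 (adjusted p = 0.0517 to 0.12). Without both arrays that stood apart, Ephx2 changed by 0.47 at 12 h (adjusted p = 0.11) and by 0.63 at 24 h (adjusted p = 0.0163, called).

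Nqo1, which reduces quinones and is a classical target of the regulator Nrf2, was not called against fed at any time. Its values were 0.25, 0.38 and -0.40 in fed pools, 0.54, 0.24 and 0.01 at 12 h, -0.68, -0.50 and -0.45 at 24 h, with -0.03, 0.19 and 0.47 at 72 h. All 24 h pools lay below all others. The 24 h change was -0.62 (SE 0.22, adjusted p = 0.0813). Without fed replicate 3 Nqo1 was called lower at 24 h (-0.86, adjusted p = 0.0324).

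**Figure D4:**
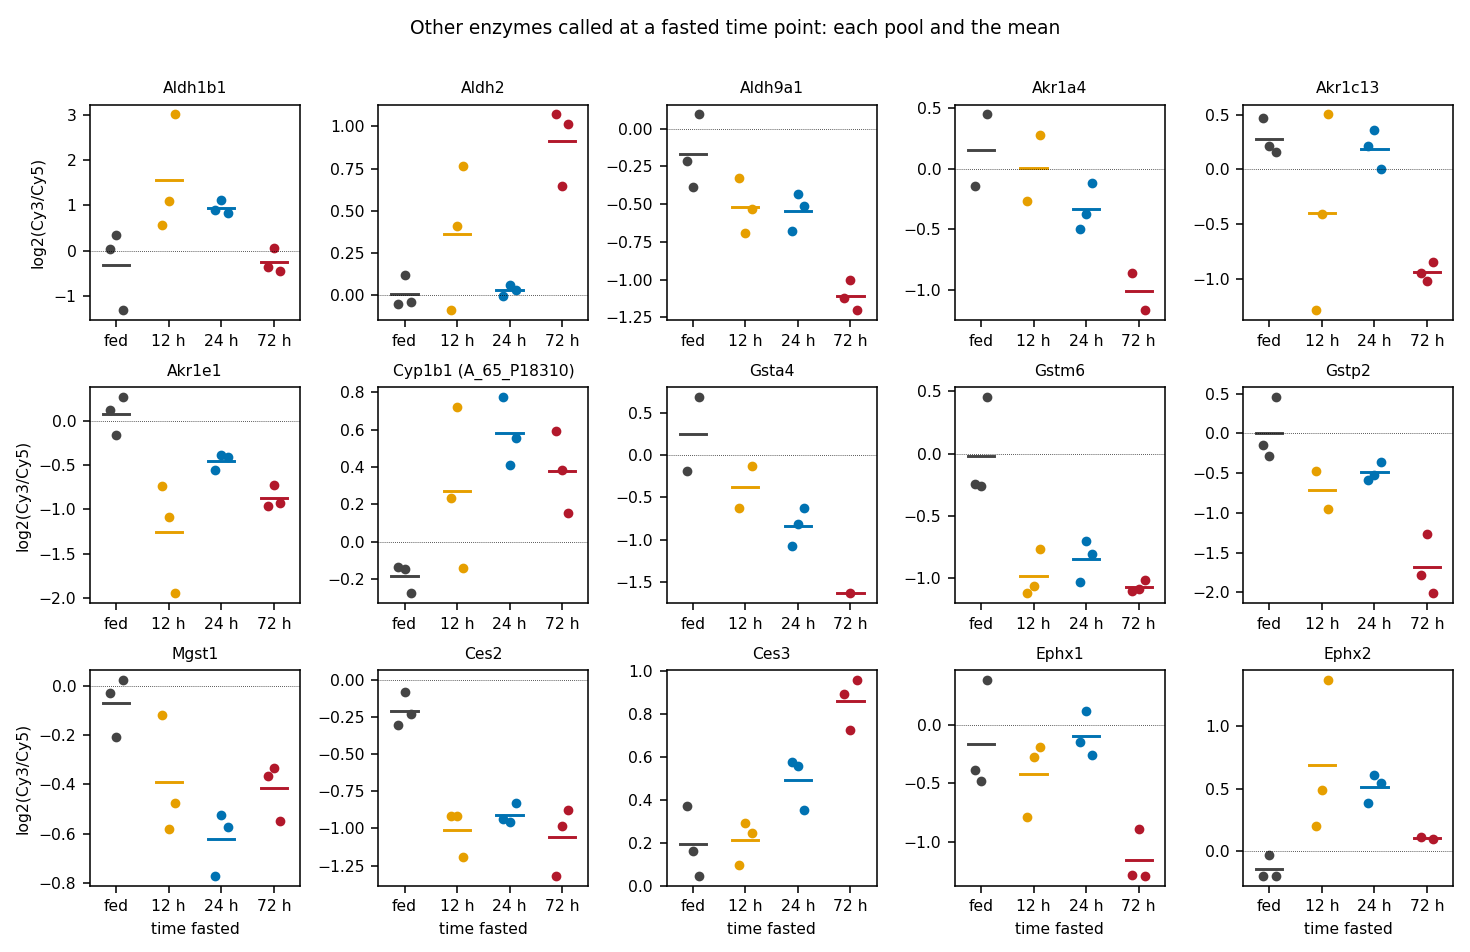
Log2(Cy3/Cy5) of the 15 probes outside the retinoid set that were called at a fasted time, in each pool of 2 mice (points) with the mean of each time point (bars). Each panel has its own scale. Gstm6 and Ces2 lie lower in all fasted pools, and the 72 h pools of Aldh2 (0.65 to 1.07) all lie above the fed pools.

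Of 14 cytochrome P450 probes 0, 1 and 0 were called at 12, 24 and 72 h, beside 10.9%, 10.1% and 10.6% of all probes. With 14 probes, such counts lie near those shares. An unadjusted p under 0.05 (limma) was reached by 3, 4 and 2 (21.4%, 28.6% and 14.3%), beside 29.2%, 27.0% and 25.3% of all probes. Medians were -0.16, -0.16 and 0.02. The enzymes on the array are mostly those of steroids, sterols and vitamin D (Cyp11a, Cyp17a1, Cyp19, Cyp27b1, Cyp39a1 and Cyp7b1). Xenobiotic families were represented by Cyp1b1 and Cyp2e1. Cyp1b1, which hydroxylates polycyclic hydrocarbons and oestradiol, has 2 probes that differed. The one called (A_65_P18310) was not well above background on any fed array, with log2 ratios of -0.14, -0.14 and -0.28 in fed and 0.77, 0.41 and 0.55 in 24 h pools. Its ratio was higher at 24 h by 0.77 (SE 0.21, adjusted p = 0.0321). Its Cy3 signal, here from loess in place of quantile normalization, was at least 2.85-fold higher, a bound to which this p does not belong. Its reference signal was also higher at 24 h, by 0.95 (adjusted p = 0.0259), although the reference is the same RNA. The call was lost when any of the 6 fed and 24 h arrays was left out (adjusted p = 0.0505 to 0.12). The other probe (A_65_P09261) changed by -0.25 at 24 h (adjusted p = 0.335). Of 8 enzyme probes not well above background on any fed array, 5 were P450s. Both Cyp2e1 and both Cyp7b1 probes were uncalled, the largest changes being -0.68 for Cyp2e1 (adjusted p = 0.0808) and -0.65 for Cyp7b1 (adjusted p = 0.0589), each at 24 h and by 1 of the pair. Without both arrays that stood apart, these Cyp2e1 and Cyp7b1 probes were called lower at 24 h (-0.72 and -0.55, adjusted p = 0.04 and 0.0353). In the same run 1 Cyp27b1 probe was called higher (0.51, adjusted p = 0.0384), and 16.5% of all probes were called. The other probes of Cyp2e1, Cyp7b1 and Cyp27b1 were not called (-0.02, 0.07 and -0.24).

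Por, the reductase that feeds all microsomal P450s, was uncalled with both probes. Probe A_65_P20475 stood at -0.09, 0.65 and -2.24 in fed pools, 0.99, 1.15 and 0.87 at 24 h, with 0.70, 0.76 and 0.56 at 72 h. Probe A_65_P02406 stood at 0.73, 1.28 and -0.26 in fed pools, 0.51, 0.33 and 0.42 at 24 h, with 1.17, 1.5 and 1.27 at 72 h. At 24 h the probes gave 1.56 (SE 0.50, adjusted p = 0.0614) and -0.16 (SE 0.33, adjusted p = 0.789), and at 72 h 1.24 (adjusted p = 0.136) and 0.73 (adjusted p = 0.178). The fed spread came from fed replicate 3. Without both arrays that stood apart, the first probe was called higher at 24 h (0.72, adjusted p = 0.0356) and the second was not called at any fasted time against fed.

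The only probe with a glucuronosyltransferase name, Ugt8, belongs to an enzyme of ceramide galactosylation rather than of drugs. It was not well above background on any fed array and changed by 0.11, 0.42 and 0.34, uncalled. Across all 45 probes, 34 had a value on every array, 27 were called at no fasted time, 12 were lower and 6 higher at 1 or more, and none was called in both directions. The same counts were not made over all probes, so they are not read as a result about the enzymes.

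The reference channel shows how far arrays differed apart from the intestines. At 72 h no enzyme probe was called in Cy5 (limma), where 0% of all probes were. At 12 h 8 enzyme probes were called in Cy5, beside 21.9% of all probes, and at 24 h 6, beside 20.4%. In Cy3 alone 8, 12 and 8 of the 45 enzyme probes were called at 12, 24 and 72 h. The shares of all probes were 15%, 24.6% and 8.65%. Of the enzymes called by the ratio, 3 of 7, 6 of 6 and 8 of 13 were also called in Cy3 alone. These last counts are not comparable with the shares of all probes, since the ratio contains Cy3. In all 3 comparisons Cy3 moved in the direction of the ratio for every called enzyme. The reference changed more than Cy3 for 2 of the 7 called at 12 h (Adh5 and Ces2) and 1 of the 13 at 72 h (Ces3), and 3 of the 7 called at 12 h (Adh5, Akr1e1 and Ces2) and 1 of the 6 at 24 h (Cyp1b1) were themselves called in Cy5.

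**Figure D5:**
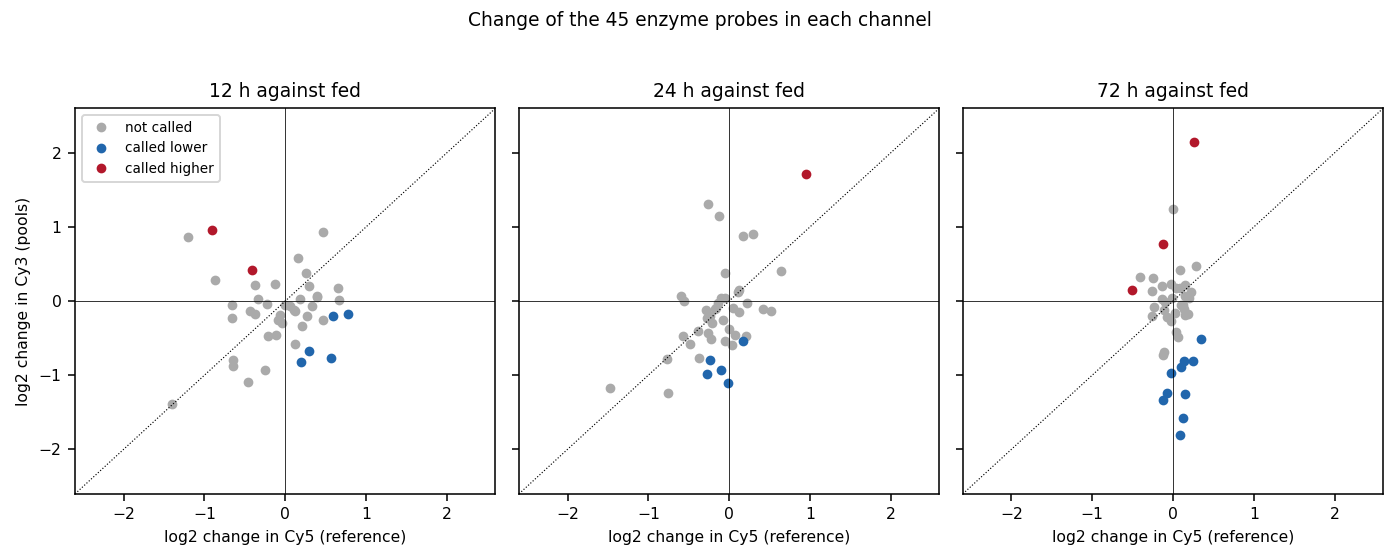
Log2 change of the 45 enzyme probes in Cy3 (pools, y axis) against their change in Cy5 (reference, x axis) at 12, 24 and 72 h against fed, on common axes. The dotted line marks equal change in both channels; blue points were called lower by the ratio, red called higher and grey not called. At 72 h the points spread far less along the Cy5 axis (SD 0.18 over the probes) than at 12 h (SD 0.50).

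Comparing fasted times with one another, no enzyme was called between 24 h and 12 h (limma), where 2.92% of all probes were, and 7 of the 45 had an unadjusted p under 0.05, beside 21.0% of all probes. With array weights 6 were called (9.26% of all probes), without background correction 1 (1.79%), in Cy3 alone 1 (8.2% of all probes), and 3 without the pair of arrays that stood apart (5.09%). Between 72 h and 12 h 7 were called, beside 10.8% of all probes, and between 72 h and 24 h 9, beside 10.6%. Both cross the file formats. Gstp2 was lower at 72 h than at 24 h by 1.19 log2 units (SE 0.23, adjusted p = 0.00757), whichever array was left out, and no other call of these comparisons held under every left-out array. The count between 72 h and 12 h was 0 without 72 h replicate 1 (3.03% of all probes) or 3 (4.56%), 3 without 72 h replicate 2 (6.95%) and 15 without 12 h replicate 1 (16.2%). Between 72 h and 24 h it was 1 without 72 h replicate 1 (2.72%) or 3 (4.69%), 2 to 4 without any other single array of those times (4.91% to 6.87%), and 20 without the pair of arrays that stood apart, beside 24.7% of all probes. Without that pair, 11 were called between 72 h and 12 h, beside 14.3%.

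Of the rest of the pathway, 5 of 8 listed export pumps, 8 of 15 receptors and regulators, 3 of 15 retinoid carriers and esterifying enzymes, 5 of 7 genes of glutathione supply and 10 of 16 of cofactor supply were on the array (old and new symbols are both listed). Abcg2, the breast cancer resistance protein, was 1.76-fold lower at 24 h (adjusted p = 0.0285), then 1.69-fold lower at 72 h (adjusted p = 0.036), and Abcc3, a basolateral pump of conjugates, 2.09-fold lower at 72 h (adjusted p = 0.00595). The other 3 pumps were not called against fed. Among cofactor genes 4 were lower at 12 h, 1 at 24 h and 4 at 72 h, beside 6.02%, 6.26% and 5.8% of all probes. Ugdh is in the 12 h and 72 h counts. Ugp2, Ugdh and Papss1, which make the donors of glucuronic acid and sulfate, were 2.02-, 2.46- and 1.85-fold lower at 72 h (adjusted p = 0.012, 0.0369 and 0.0121), and Ugdh was 2.31-fold lower at 12 h (adjusted p = 0.048). Ugdh had a value on 1 fed array only, so both of its tests take the spread from the other groups and assume that the lone fed pool varies like them. Mod1, malic enzyme and a source of NADPH, was 1.71-fold lower at 12 h and 1.97-fold lower at 72 h (adjusted p = 0.0255 and 0.00582). Txnrd1, thioredoxin reductase, was 1.60-fold lower at 12 h (adjusted p = 0.0278). Cyb5, an electron donor to P450s, was 2.19- and 1.72-fold lower at 12 and 24 h (adjusted p = 0.00665 and 0.0185). Hmox1, heme oxygenase, rose 1.62-fold at 24 h and 2.08-fold at 72 h (adjusted p = 0.0284 and 0.00226). Gclm, the modifier of glutathione synthesis, was lower at 12 h with both probes, 2.38- and 1.48-fold (adjusted p = 0.00517 and 0.0384). Of the receptors, Ppara, the fatty acid receptor, was 2.03- and 1.87-fold higher at 12 and 24 h (adjusted p = 0.0219 and 0.0362), and Rxra, the common partner of the xenobiotic and retinoid receptors, 5.32-fold higher at 72 h (adjusted p = 0.00659). No retinoid carrier or esterifying enzyme was called against fed. Between fasted times, Nfe2l2, the gene of Nrf2, was 3.96-fold lower at 72 h than at 12 h (adjusted p = 0.00264) and 3.36-fold lower than at 24 h (adjusted p = 0.00531), across file formats, and was not called against fed. Across the same formats Abcc5 was lower (-0.84, adjusted p = 0.0307) and Stra6, a retinol transporter, higher (0.55, adjusted p = 0.0493) at 72 h than at 24 h, and Alas1 (-1.31, adjusted p = 0.0203) and G6pdx (-0.75, adjusted p = 0.0275) lower than at 12 h.

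Promoter windows were found by gene number for 31 of the 40 enzyme genes. TGACNNNGC occurred in 3 of them (Aldh9a1, Gstm5 and Mgst1), beside 14% of all genes with a window. GCGTG occurred in 14, beside 35.2%, and the DR1 element in none. Of the 11 genes called lower at a fasted time that have a window, 2 hold TGACNNNGC and 3 hold GCGTG, and of the 3 called higher 0 and 1 do.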

How the data were processed

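RNA of small intestine was hybridised to 12 two-colour Agilent arrays, 3 per time point. The authors extracted spot intensity (median signal and local background of each channel) with Feature Extraction 6.1.1. The deposited signals are not normalized between arrays; the authors subtracted background and quantile-normalized them later, before their own tests. The deposited log10 ratio of Cy5 over Cy3, a software value held in a column whose decimals were moved in 1655 cells and unusable in 256, served only as an alternative. The authors' value table repeats it with the sign turned and was not used. The genome build behind the probes is not given in the sources used here.

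Groups came from the sample labels. Background was corrected by normexp (offset 50), control and outlier-flagged spots and 91 spots without a probe were left out, the 24 channels were quantile-normalized and spots of a probe averaged. Dyes were not swapped, so a dye effect that is equal on all arrays cancels between time points. log2(Cy3/Cy5) was fitted with limma 3.58.1 (R 4.3.3) as a mean per time point over all 12 arrays, with Benjamini-Hochberg adjustment over all probes, and called at an adjusted p under 0.05. The study's own split-factor ANOVA was not repeated; its thresholds (p under 0.01 and 1.4-fold) were applied to the limma fit as an alternative. For probes not above background in a group, the fold is a lower bound from Cy3, the bright group's mean against the lowest signal well above background. These bounds take Cy3 from loess normalization, which draws on both channels, and not from the quantile-normalized channels. Scripts were tested on simulated data. The number of arrays limits the precision.

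The members and gene lists were chosen with earlier results of these data known. The text names every called enzyme, every retinoid gene, Por, Nqo1, probes of a gene that disagree, and pathway genes called against fed, with those called only between fasted times; the others named were chosen after their values were seen. Alternatives covered background correction, normalization, the Cy3 channel alone, the deposited ratio, dim and saturated spots, array weights, a replicate block, the arrays entered and each array left out. Symbols are those of the 12 h files; 7 of the 45 have another symbol in RefSeq today. Promoter sequences are from RefSeq (GRCm38.p6), matched by gene number. Figures were drawn with matplotlib 3.10.9.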

Additional observations from a re-analysis of the deposited data

Results flagged for a closer look

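These enzymes differed between fasted times in a direct test of the difference (limma, adjusted p over all probes), so that their changes against fed were not equal. All 16 differences cross the file formats. The part of the format was not tested.

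Between 72 h and 12 h, 7 enzymes differed. Rdh5 was higher at 72 h by 1.48 (adjusted p = 0.0195), Cyp4v3, a fatty acid hydroxylase, by 0.72 (adjusted p = 0.0331) and Ces3 by 0.65 (adjusted p = 0.0151). Aldh1b1 was lower by -1.80 (adjusted p = 0.0331), Akr1a4 by -1.02 (adjusted p = 0.0324), Gstp2 by -0.97 (adjusted p = 0.0324) and Aldh9a1 by -0.59 (adjusted p = 0.0352). Without 12 h replicate 3, whose value was 3.00, Aldh1b1 differed by -1.08 (adjusted p = 0.0711), and without fed replicate 3 as well by the same size (adjusted p = 0.00354). It was also lost without 72 h replicate 1, 2 or 3 (adjusted p = 0.118, 0.0586 and 0.107). All 7 calls were lost in a fit of the arrays of those times alone, and none held under every left-out array.

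Between 72 h and 24 h, 9 enzymes differed. Rdh5 was higher at 72 h by 1.29 (adjusted p = 0.0362), Aldh2 by 0.88 (adjusted p = 0.0135), Nqo1 by 0.75 (adjusted p = 0.0397) and Cyp19, aromatase, by 0.57 (adjusted p = 0.0442). The Cyp19 probe was well above background on no fed array, on 2 of 3 at 24 h and on 1 of 3 at 72 h. Its call was lost in Cy3 alone and held in 1 of 6 runs with an array left out. Gstp2 was lower by -1.19 (adjusted p = 0.00757), Akr1c13 by -1.13 (adjusted p = 0.0341), Ephx1 by -1.06 (adjusted p = 0.0123), Aldh1a1 by -0.69 (adjusted p = 0.0327) and Aldh9a1 by -0.57 (adjusted p = 0.0435). Of the 6 runs with an array left out, the Gstp2 call held in all, Aldh2 in 4, Ephx1 in 3 and Rdh5 in 1. Those of Aldh1a1, Aldh9a1, Akr1c13 and Nqo1 held in 0. Aldh9a1, Gstp2 and Rdh5 differed in both comparisons, which share the 72 h pools.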

How the results depend on the processing

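No called enzyme changed direction under any alternative run. Of 712 alternative values of called enzymes 502 stayed called and 210 did not. For the retinoid set, Por and Nqo1, where uncalled, 32 of 867 alternative values passed. Other uncalled enzymes, such as Mgst3, are not in that count. The counts, with all arrays 7, 6 and 13 at 12, 24 and 72 h against fed, 0, 7 and 9 for 24 h against 12 h, 72 h against 12 h and 72 h against 24 h, and 16 by the F-test, moved by over 1.5 times as follows. Median centring gave 16 at 12 h and 13 at 24 h (14.9% and 19.3% of all probes), and 2 each for 72 h against 12 h and 24 h (3.27% and 6.18%). Array quality weights gave 12, 14, 20, 6, 13, 17 and 31, where 32.1%, 29.9%, 33.2%, 9.26%, 23.2%, 25.2% and 62.6% of all probes passed. Cy3 alone gave 12 at 24 h, 8 at 72 h and 1 for 24 h against 12 h (24.6%, 8.65% and 8.2% of all probes). A fit of the compared groups' arrays alone gave 0 at 12 h, where no probe of the array passed, and 12 at 24 h (16%). It gave 0 for 72 h against 12 h (2.99%) and 18 for 72 h against 24 h (22.1%). The deposited ratio gave 3 for 72 h against 12 h (7.28%). For 24 h against 12 h no background correction gave 1 (1.79%) and the study's thresholds 4 (8.23%). Without fed replicate 3 and 12 h replicate 3, an alternative added after seeing the data, 11 were called at 24 h, 3, 11 and 20 between fasted times, and 29 by the F-test. The shares of all probes were 16.5%, 5.09%, 14.3%, 24.7% and 34.1%. Leaving out 1 array at a time gave 4 to 11 at 12 h, 0 to 5 at 24 h, 7 to 15 at 72 h, 0 to 2, 0 to 15 and 1 to 4 between fasted times, and 7 to 24 by the F-test. In the same order, the shares of all probes ran from 3.14% to 22.6%, 2.89% to 5.96%, 4.2% to 8.68%, 0.829% to 7.35%, 3.03% to 16.2%, 2.72% to 6.87% and 12.7% to 36.6%. Replicate numbers did not pair the arrays: deviations of same-numbered arrays correlated at -0.297 to 0.128, and 4 of 12 arrays correlated best with their own number. With the replicate block the counts were 3 at 24 h (7.36% of all probes) and 3 each for 72 h against 12 h and 24 h (8.19% and 8%). The share of all calls that were higher was 45.3% at 72 h and 31.7% under median centring, 37.7% at 24 h and 48.7% without background correction, 42.1% for 24 h against 12 h and 25.8%, 11.4% and 26.6% under loess, median centring and the deposited ratio, and 54.3% for 72 h against 12 h and 65.3% under median centring. The cause of these shifts was not tested. Signal limits 8 probes that were not well above background on any fed array.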
